A study of Mus musculus with 19 samples.

Results

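The 9 genes described here encode receptors and adhesion molecules that hold blood stem and progenitor cells in the bone marrow and guide their homing to it after transplantation. They were taken by name as *Cxcr4*, *S1pr1*, *Robo4*, *Itga4*, *Itgb1*, *Itgal*, *Itga6*, *Selplg* and *Cd44*, and all 9 were found among the 54352 genes counted in each of 19 RNA-seq libraries. In CMPs with the control shRNA 0 of the 9 passed edgeR's quasi-likelihood test against LSK cells, where 19.8% of all genes passed, and 2 members, *Itgb1* and *Robo4*, had levels that did not overlap between the cell types, as had 31.1% of all genes. In CMPs that carried sh20, 2 members, *Selplg* and *Itgal*, were called lower than in control CMPs, where 6.17% of all genes were called, and both calls were lost with the replicate letter as a block, with total counts as a covariate or without 1 control library. With that covariate *Itgal* had a log2 fold change of -0.69, beside -0.71, and *Selplg* -0.14, beside -0.43. In CMPs depth and knockdown cannot be told apart, so the fit with the covariate cannot decide whether the calls hold. Between shRNAs in LSK cells 0 members passed, as did 0.0% of all genes.

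The libraries came from CMP and LSK cells of mouse bone marrow, sorted for the zsGreen reporter of shRNA expression. LSK cells, which the labels call KLS, are Lin- Sca1+ cKit+ cells and hold the stem cells and multipotent progenitors, and CMPs are the common myeloid progenitors. Donor HSCs were from the C57BL6 strain and carried a doxycycline-inducible shRNA, either sh10 (12928-10) or sh20 (12928-20) against the lncRNA *Spehd*, or the control shRNA against *Renilla* luciferase. All groups shared the same conditions. Per the study's methods the recipients were adult, sub-lethally irradiated C57BL/6-CD45.1; cKit-w41 animals of both sexes without competitor cells, which reconstituted for 10 weeks and ate doxycycline food for 6 days. No counted gene bears the name *Spehd*, so its own level was not analysed here. There were 4 LSK libraries with *Renilla* shRNA, 3 with sh10 and 3 with sh20, and 4, 3 and 2 from CMPs. The methods give several recipients per well of transduced HSCs, and nothing states that replicates A to D are separate animals, so p-values measure only the spread between these libraries.

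The members act in sequence as cells find and stay in the marrow. CXCR4 is the receptor for the chemokine CXCL12, which marrow stroma makes, while S1PR1 responds to sphingosine 1-phosphate and draws cells out towards the blood. Selectin ligands such as PSGL-1, encoded by *Selplg*, and certain forms of CD44 let cells roll on the vessel wall. Integrins then hold the cell, VLA-4 (*Itga4* with *Itgb1*) on VCAM1 and fibronectin, LFA-1 (*Itgal* with *Itgb2*) on ICAM1, and alpha 6 integrin (*Itga6* with *Itgb1*) on laminin. ROBO4 is a guidance receptor of endothelium and HSCs that has been tied to the anchoring of HSCs in the niche.

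The 3 shRNAs differ in sequence, and the members were searched for the complement of each seed, because their responses to sh10 and sh20 differ below. The guide strands, as the study designed them, are written 5′ to 3′ with bases 2 to 8, the seed, in capitals.
sh10: tACAAAGTcagcttttcctctc
sh20: tATGCTATgacaacccagggca
Renilla: tAGATAAGcattataattccta
All 9 members have an annotated 3′ UTR in GENCODE vM21. The complement of the sh10 seed, ACTTTGT, lay in the annotated 3′ UTR of *Itga4* and *Itgal*, and in that of 17.9% of 21020 genes. The complement of the sh20 seed, ATAGCAT, lay in that of *Cd44*, against 9.13% of the genes. For the *Renilla* seed, CTTATCT, no member held the complement (8.97% of the genes). No gene held a 21-base match to any of the guides. The 29 bases around each match are given on the transcript strand, with the match in capitals.
Itga4 (sh10): tcaactccattACTTTGTgtgctgaatta
Itgal (sh10): catatacctaaACTTTGTgaaaaaacaga
Cd44 (sh20): aatttatgaaaATAGCATtgctttctgaa
On GRCm38 these windows lie at chr2:79333067-79333095 on the plus strand (*Itga4*), at chr7:127331258-127331286 on the plus strand (*Itgal*, in the 3′ UTR of the transcript Itgal-204) and at chr2:102813936-102813964 on the minus strand (*Cd44*). A seed match describes the letters of these sequences and does not show that a transcript is bound.

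On the same build the members lie at chr1:128588199-128592293 (*Cxcr4*, minus strand), chr3:115710433-115715072 (*S1pr1*, minus), chr9:37401897-37415115 (*Robo4*, plus), chr2:79255426-79333123 (*Itga4*, plus), chr8:128685654-128733200 (*Itgb1*, plus), chr7:127296260-127335138 (*Itgal*, plus), chr2:71745616-71858416 (*Itga6*, plus), chr5:113818536-113832644 (*Selplg*, minus) and chr2:102811141-102901665 (*Cd44*, minus). Exons of *Itga4* overlap exons of *Cerkl* on the other strand, and the SMART-Seq v4 kit that the methods name does not mark the strand, so reads of the pair cannot be told apart. *Cerkl* held 48 to 240 counts per library, against 385 to 1740 for *Itga4*.

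Library totals over genes ran from 3647318 to 5965155, and their median was 4918631. In CMPs every *Spehd* library (4918631 to 5965155) was larger than every *Renilla* library (3857980 to 4314959), so depth and knockdown cannot be told apart there. Replicate B of sh10 in LSK cells stood apart, with a median Spearman correlation of 0.748 with the other LSK libraries over 7778 genes, where the other libraries ranged from 0.88 to 0.96 with those of their cell type. Markers of the sorted cells went partly with the labels. *Ly6a*, which encodes the Sca1 of the LSK gate, had 39.9 to 81.7 CPM (a count scaled to library size after TMM normalization) in LSK cells and 1.58 to 9.83 in CMPs. *Gata1* had 58.9 to 124.7 CPM in LSK cells and 252.8 to 312 in CMPs. The early myeloid markers went the other way from the CMP label, with 6 of 7, among them *Mpo* and *Elane*, called lower in the *Renilla* CMPs than in the *Renilla* LSK cells and sums of 466.6 to 662.9 against 952.8 to 1210 CPM, while 6 of 6 erythroid and 5 of 6 megakaryocyte markers were called higher. The marker lists of other cells also differed between groups. Macrophage markers summed to 34.6 to 228.1 CPM in CMPs with *Renilla* shRNA, 82.9 to 97.1 with sh10 and 207.9 to 286.4 with sh20, and megakaryocyte markers to 300.2 to 881.5, 256 to 330.2 and 674.4 to 724 CPM. T and NK cell markers (*Cd3d*, *Cd3e*, *Cd3g*, *Ncr1* and *Gzma*) summed to 87.2 to 137.4 CPM in CMPs with *Renilla* shRNA, 5.83 to 10.9 with sh10 and 74.8 to 140.1 with sh20, and to 6.52 to 42.1 CPM in LSK cells.

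Levels of different genes were compared per kb of exon, only roughly, since the lengths merge the exons of all isoforms and removal of duplicates limits the counts of abundant genes. *Itgb1* was the highest of the 9 in the mean of all 6 groups, *Selplg* came next and *Robo4* was the lowest. In LSK cells with *Renilla* shRNA the means were 95.7 ± 4.16 CPM per kb for *Itgb1*, 63.2 ± 4.61 for *Selplg*, 24.9 ± 2.56 for *Itga6*, 23.7 ± 1.53 for *Cd44* and 22.8 ± 4.32 for *Itgal* (SD, n = 4). They were 14.1 ± 2.24 CPM per kb for *S1pr1*, 11.3 ± 2.05 for *Cxcr4*, 10.3 ± 1.157 for *Itga4* and 8.18 ± 1.95 for *Robo4* (SD, n = 4). The libraries did not overlap at 3 steps of this order, from *Itgb1* to *Selplg*, from *Selplg* to *Itga6* and from *Itgal* to *S1pr1*. The ranges of the neighbours *Itga6*, *Cd44* and *Itgal* overlapped, as did those of *S1pr1*, *Cxcr4*, *Itga4* and *Robo4*, each with the next. The beta chain of VLA-4 was thus far above its alpha chain in level per kb, and it also pairs with other alpha chains such as that of *Itga6*.

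In CMPs with *Renilla* shRNA the top 2 genes and the last were the same, while the mean of *Itga4* stood above that of *Cxcr4*, with overlapping ranges. *Itgb1* had 107.2 ± 6.10 CPM per kb, *Selplg* 57.8 ± 3.28, *Itga4* 12.0 ± 2.21, *Cxcr4* 6.89 ± 2.72 and *Robo4* 2.72 ± 1.11 (SD, n = 4). There the ranges of *Cxcr4* and *Robo4* no longer overlapped. In CMPs with sh10, *Itga4* stood higher in the order, at 19.97 ± 5.67 CPM per kb (SD, n = 3), with a range that overlapped that of *Itga6* above it and lay wholly above that of *S1pr1* below it.

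**Figure D1:**
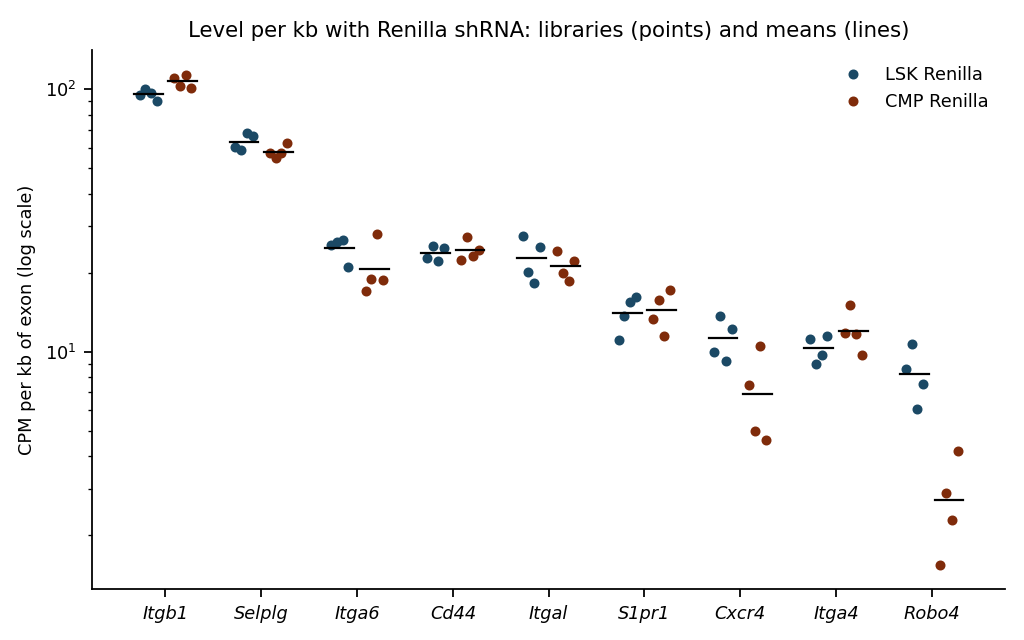
Level of the 9 genes in CPM per kb of exon (log axis) in the 4 LSK and 4 CMP libraries with Renilla shRNA, where points are libraries and lines are means. Itgb1 and Selplg lie above the other 7 genes in both cell types, and Robo4 is the gene with the widest gap between cell types.

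The question of how the members differ between stem cell rich LSK cells and CMPs was addressed in the *Renilla* libraries, in a fit of all 19 libraries. The test was edgeR's quasi-likelihood test, and a gene is said to pass, or to be called, at a Benjamini-Hochberg adjusted p under 0.05. Of the 15066 genes tested 19.8% passed, and 0 of the 9 members did. At an unadjusted p under 0.05 there were 2 members, *Robo4* and *Cxcr4*, against 32.9% of all genes. DESeq2 called 1 member, *Robo4*. The members' log2 fold changes from LSK cells to CMPs ran from -1.59 to 0.22 with a median of -0.10, where the median of all genes was -0.02. The CPM of 2 members, *Itgb1* and *Robo4*, did not overlap between the cell types, which was also so for 31.1% of all genes.

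*Robo4* had 45.4, 56.4, 31.9 and 39.7 CPM in the 4 LSK libraries with *Renilla* shRNA and 8.16, 15.4, 12.1 and 22.1 CPM in the 4 from CMPs. Every CMP library was below every LSK library. In bulk libraries, fewer cells with a transcript and less of it per cell cannot be told apart. The log2 fold change was -1.59 (SE, the standard error, 0.56), a level 3.01-fold lower in CMPs, and its adjusted p of 0.0541 just missed the threshold. The call changed with the libraries in the fit and with the tool. Without CMP sh20 replicate B or C the adjusted p was 0.000852 or 0.000883, and with the 8 *Renilla* libraries alone it was 0.00113. The fold changed little, from -1.87 to -1.38 on the log2 scale over all libraries left out in turn.
*Robo4* is also an endothelial gene. The endothelial marker *Cdh5* had at most 2 counts in any library and *Sox17* at most 1. Of 9 endothelial markers 7 were tested, of which 1 was higher and 2 were lower in these CMPs. The list summed to 232.8 to 271.5 CPM in these LSK libraries and 159.6 to 249.4 in the CMPs, of which *Tie1*, also expressed by HSCs, had 141.4 to 192.3 CPM in these LSK libraries and 71.2 to 117.4 in the CMPs. The part of endothelial cells in the *Robo4* difference was not tested.

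*Cxcr4* had 18, 24.7, 16.6 and 22 CPM in LSK cells and 13.4, 9.02, 19 and 8.35 CPM in CMPs with *Renilla* shRNA. The groups overlapped through CMP replicate C. The log2 fold change was -0.71 (SE 0.28) at an edgeR adjusted p of 0.0903, and without CMP replicate C it was -0.97 (edgeR adjusted p = 0.0279).

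*Itgb1*, the common beta chain, had 390.1, 408, 396.9 and 367.7 CPM in LSK cells and 452.4, 420.8, 464.5 and 412.3 CPM in CMPs. All 4 CMP libraries were higher, by little, with a log2 fold change of 0.16 (SE 0.17) at an edgeR adjusted p of 0.564. Without LSK sh10 replicate B, whose *Itgb1* was far from the rest, it was 0.18 (SE 0.06) at an edgeR adjusted p of 0.0394.

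The other 6 members overlapped between the cell types. *Itga4* had a log2 fold change of 0.22 (2 standard errors either side, -0.24 to 0.69), *Itgal* -0.10 (-0.43 to 0.22), *Itga6* -0.26 (-0.78 to 0.26), *Selplg* -0.13 (-0.29 to 0.03), *Cd44* 0.04 (-0.32 to 0.39) and *S1pr1* 0.04 (-0.42 to 0.49). The interval of *Selplg* was the narrowest of the 6, and that of *Itga6* the widest.

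**Figure D2:**
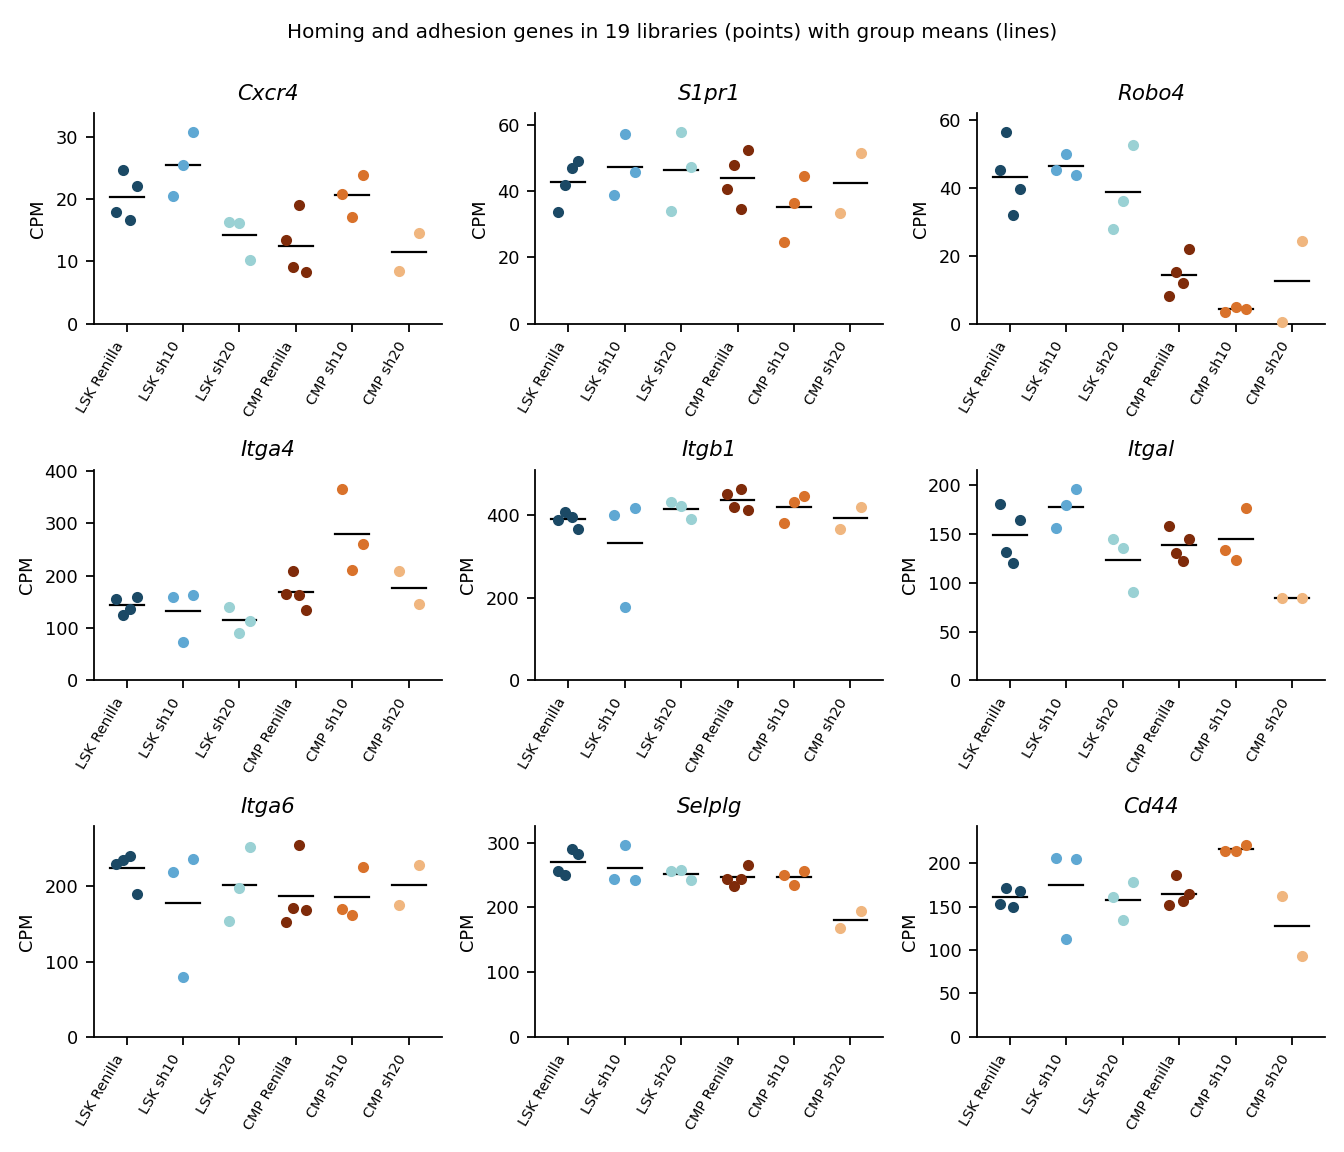
CPM of each of the 9 genes in the 19 libraries, with 1 point per library, group means as lines and axes from 0. Robo4 is lower in CMPs, Itga4 is highest in CMPs with sh10, Selplg and Itgal are lowest in CMPs with sh20, and the single low LSK sh10 point of Itgb1 (177 CPM) and of Itga6 (79.4 CPM) is replicate B.

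In cells with sh10 the same contrast gave 2 members past the threshold, against 16.1% of all genes. The CPM of 3 members (*Itga4* and *Cd44* above, *Robo4* below) did not overlap, against 39.5% of all genes. *Robo4* had 45.3, 50.1 and 43.7 CPM in LSK cells and 3.37, 5.02 and 4.18 CPM in CMPs, from 16, 25 and 20 counts. All CMP libraries were lower, with a log2 fold change of -3.46 (SE 0.71), which is 11-fold, at an edgeR adjusted p of 0.00296. *Robo4* passed when any library of the fit was left out, with log2 fold changes from -3.62 to -3.34.
*Itga4*, the alpha chain of VLA-4, had 158.6, 73.7 and 163.3 CPM in LSK cells and 366, 211 and 260.5 CPM in CMPs. The CMP libraries were all higher, and LSK replicate B was low. The log2 fold change was 1.08 (SE 0.27) at an edgeR adjusted p of 0.0102, and 0.82 without LSK replicate B (adjusted p = 0.0215). Without CMP replicate A, the highest library, it was 0.84 and the adjusted p was 0.0559, and with only the 6 libraries compared in the fit it was 1.06 and the call was also lost (edgeR adjusted p = 0.0725). The overlapping *Cerkl* had a mean of 26.3 CPM in these LSK libraries and 37.5 in the CMPs.

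With sh20, 1 member passed the threshold between CMPs and LSK cells, against 14.6% of all genes, and the CPM of 4 members did not overlap (37.2% of all genes). *Selplg* had 255.9, 257.6 and 242.1 CPM in LSK cells and 167.6 and 194.6 CPM in CMPs. Both CMP libraries were lower, with a log2 fold change of -0.48 (SE 0.11) at an edgeR adjusted p of 0.00591. Without CMP replicate B it was -0.36 with an adjusted p of 0.103, where the remaining CMP library with sh20 is assumed to vary like the other groups. The call was also lost with only the 5 libraries compared in the fit (-0.48, edgeR adjusted p = 0.0827).
*Robo4* could not be given a common level in CMPs with sh20, since replicate B had 0.508 CPM from 3 counts and replicate C had 24.4 CPM from 139 counts. Both lay below the LSK libraries with sh20, which had 27.8, 36.1 and 52.7 CPM, but the log2 fold change moved from -1.64 (SE 0.74) at an edgeR adjusted p of 0.148 to -0.66 without replicate B (adjusted p = 0.393), and without replicate C it passed the threshold on 3 counts (edgeR's quasi-likelihood test, adjusted p = 4.45e-05), each time with a lone CMP library as above. Replicate C had the highest sum of B cell markers, 171.6 CPM, against 24.1 to 72.4 in the other 8 CMP libraries, and the part of other cells in its *Robo4* level was not tested. The other members outside the LSK range were *Itga4*, higher with a log2 fold change of 0.63 (adjusted p = 0.164), and *Itgal*, lower with -0.56 (adjusted p = 0.0887, both edgeR's quasi-likelihood test).

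Whether the cell type difference of a member itself changed with the knockdown was tested as the effect of both *Spehd* shRNAs in CMPs minus that in LSK cells. Of 15066 genes 0.0531% passed the threshold and 0 of the 9 members did. At an unadjusted p under 0.05 there were also 0 members, against 10.1% of all genes, and DESeq2 called 0. The estimate nearest the threshold was that of *Itga4*, 0.63 on the log2 scale (SE 0.30) at an edgeR adjusted p of 0.495, and *Robo4* had -0.96 (SE 0.74) at an edgeR adjusted p of 0.647. Without LSK sh10 replicate B, 1 member, *Itgb1*, had an unadjusted p under 0.05 (9.58% of all genes), with -0.18 and an adjusted p of 0.521. The larger *Robo4* gap in cells with sh10 than in *Renilla* cells was not tested as a difference between these 2 shRNAs.

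**Figure D3:**
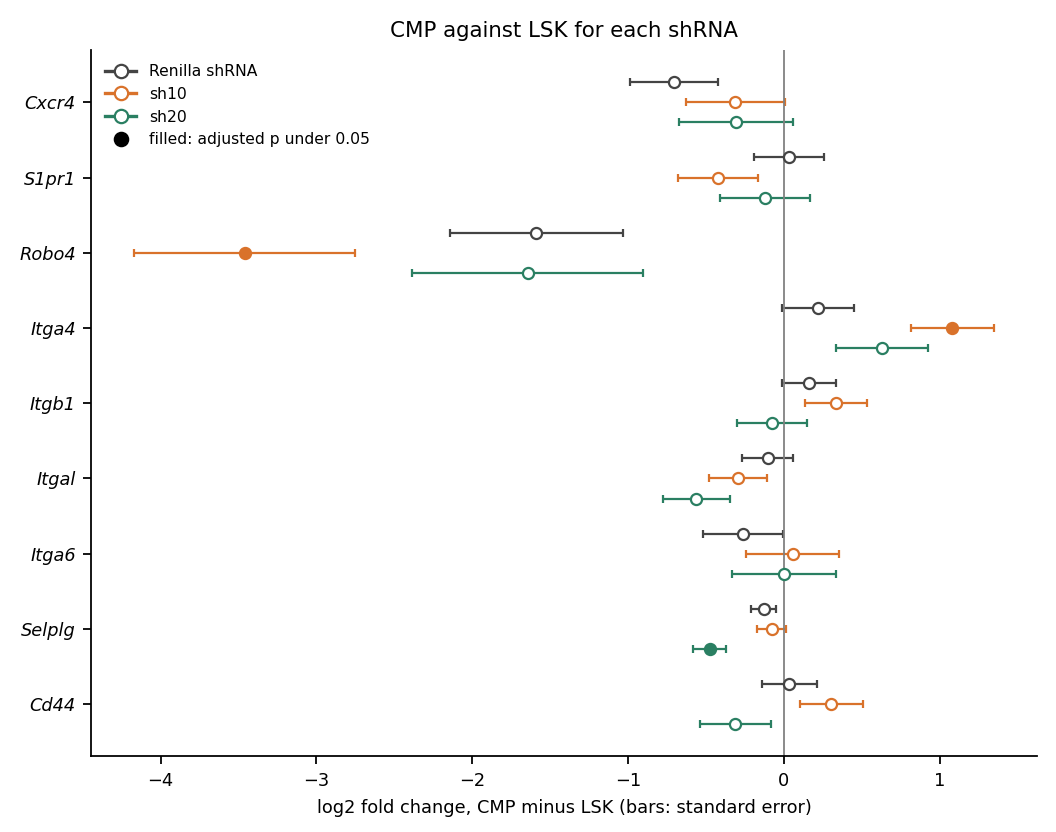
Log2 fold change from LSK cells to CMPs of each gene, with standard errors, for Renilla shRNA, sh10 and sh20; filled points have an adjusted p under 0.05. Robo4 is negative with all 3 shRNAs, from -3.46 to -1.59, and Itga4 is positive with all 3, from 0.22 to 1.08.

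With both *Spehd* shRNAs as 1 group, 0 of the 9 members passed the threshold in CMPs, where 0.116% of 12912 genes did. There were 0 members with an unadjusted p under 0.05 (16.6% of all genes) and 0 without overlap (9.25%), and DESeq2 called 0. The members' adjusted p ran from 0.306 to 0.94. The largest differences were those of *Robo4*, -0.93 on the log2 scale (SE 0.80), and *Itga4*, 0.50 (SE 0.23). The comparisons of sh10 and of sh20 with *Renilla* share the *Renilla* libraries.

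With sh10 in CMPs, 0 members passed the threshold against *Renilla*, where 1.97% of 13824 genes did. At an unadjusted p under 0.05 there were 2 members, *Itga4* and *Cd44* (21.2% of all genes), and DESeq2 called 1, *Itga4*. The CPM of 3 members, *Itga4*, *Cd44* and *Robo4*, did not overlap (25.2% of all genes).
*Itga4* had 366, 211 and 260.5 CPM with sh10 against 164, 209.8, 163.6 and 135.2 CPM with *Renilla* shRNA, so the lowest sh10 library was just above the highest control. This is a log2 fold change of 0.73 (SE 0.21) at an edgeR adjusted p of 0.0899.
*Cd44*, the receptor for hyaluronan, had 213.9, 215 and 220.8 CPM with sh10, close together and above the 151.7, 186.2, 157.1 and 164.7 CPM of the controls. Its log2 fold change was 0.39 (SE 0.16) at an edgeR adjusted p of 0.187. Both genes passed when either CMP sh20 library was left out of the fit, with adjusted p from 0.0188 to 0.0388, whereas with log2 total counts as a covariate *Itga4* had 0.41 (adjusted p = 0.967) and *Cd44* 0.02 (adjusted p = 0.997).
*Robo4* had 3.37, 5.02 and 4.18 CPM with sh10, all below the controls, with a log2 fold change of -1.78 (SE 0.88) at an edgeR adjusted p of 0.286. It too passed when either CMP sh20 library was left out. The T and NK cell markers moved in the same comparison, with 4 of the 5 lower with sh10. Early myeloid markers summed to 684.6 to 854.1 CPM with sh10 and 466.6 to 662.9 with *Renilla* shRNA, with 0 of 6 called by edgeR's quasi-likelihood test. Of the marrow stroma markers *Pdgfrb* had 92.5 to 126.2 CPM with sh10 and 52.4 to 85.8 with *Renilla* shRNA, and did not pass, while *Cxcl12* had means of 1.85 and 2.03 CPM, *Col1a2* 6.63 and 3.85, and *Lepr* and *Col1a1* lay below 1 in the mean. The part of these cells in the results was not tested.

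With sh20 in CMPs, *Selplg* and *Itgal* were called lower than with *Renilla* shRNA. These 2 members were past the threshold, where 6.17% of 13824 genes were, and both were lower, where 4.27% of all genes were called lower. Both also lay wholly below the controls (17.6% of all genes), as the only members without overlap (29.6% of all genes).
*Selplg*, which encodes the selectin ligand PSGL-1, had 167.6 and 194.6 CPM with sh20 against 244.6, 233, 243.4 and 266.3 CPM with *Renilla* shRNA. The log2 fold change was -0.43 (SE 0.08) at an edgeR adjusted p of 0.0207, a change of -25.9%.
*Itgal*, the alpha chain of LFA-1, had 84.1 and 83.9 CPM with sh20 against 158.5, 131.1, 122.3 and 145.3 CPM in the controls. Its fold change on the log2 scale was -0.71 (SE 0.16) at an edgeR adjusted p of 0.0321, a change of -39.1%.
Both calls were lost with the replicate letter as a block (adjusted p = 0.0927 and 0.180) and with log2 total counts as a covariate, where *Selplg* had -0.14 (adjusted p = 0.773) and *Itgal* -0.69 (adjusted p = 0.58), and both were lost without *Renilla* replicate D (adjusted p = 0.0533 and 0.0733) or without sh20 replicate B (0.0736 and 0.0645), which leaves 1 sh20 library that is assumed to vary like the other groups. Depth and knockdown cannot be told apart in CMPs, so the fit with the covariate cannot decide whether the calls hold. *Itgal* also lost its call with all 19 libraries in the fit (adjusted p = 0.0565) and without sh10 replicate A or *Renilla* replicate A or B (adjusted p from 0.0564 to 0.0658). *Selplg* and *Itgal* are both expressed by T and NK cells. Of the T and NK cell markers 0 of 5 passed in this comparison by edgeR's quasi-likelihood test. The mean of the NK marker *Ncr1* was 46.0 CPM with *Renilla* shRNA and 28.7 with sh20, and that of *Gzma* 22.7 and 7.3, whereas *Cd3d* had 7.29 and 16.8, *Cd3e* 12.4 and 22.8 and *Cd3g* 13.2 and 31.9 CPM. B cell markers summed to 72.4 and 171.6 CPM with sh20 and 28.0 to 63.3 CPM with *Renilla* shRNA, and 1 of 6 macrophage markers was called higher. The part of these cells in the *Selplg* and *Itgal* values was not tested.

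Set against each other in CMPs, 3 members, *Selplg*, *Itgal* and *Cd44*, were called lower with sh20 than with sh10. All genes passed at 6.41%, and 3.64% were lower. The CPM of 5 members, these and *Cxcr4* and *Itga4*, lay wholly below the sh10 libraries, as did 23.8% of all genes, while 42.4% did not overlap in either direction. Of the marker lists given above, 4 of 5 T and NK cell, 1 of 6 macrophage and 1 of 6 megakaryocyte markers were called higher with sh20, and their part in these results was not tested.
The log2 fold change was -0.43 for *Selplg* (SE 0.09) at an edgeR adjusted p of 0.027, -0.77 for *Itgal* (SE 0.17) at an edgeR adjusted p of 0.0314 and -0.75 for *Cd44* (SE 0.19) at an edgeR adjusted p of 0.0486. *Cd44* had 162 and 93.1 CPM with sh20, which were farther from each other than the sh10 libraries, and its log2 fold change was -1.21 without sh20 replicate B and -0.40 without replicate C. All 3 calls were lost with the replicate letter as a block (adjusted p from 0.0649 to 0.116) and when any of the 3 sh10 libraries was left out (0.0550 to 0.130). Without sh20 replicate B, *Selplg* (0.074) and *Itgal* (0.0526) lost theirs, and without any 1 of the 4 *Renilla* libraries *Cd44* did (0.0604 to 0.0688). *Cd44* also lost its call with the size factors of DESeq2 in place of TMM (0.0513) and with all 19 libraries in the fit (0.0626). With log2 total counts as a covariate *Selplg* (-0.32, adjusted p = 0.0556) and *Itgal* (-0.77, adjusted p = 0.0928) lost theirs, and *Cd44* passed. *Cd44* holds the complement of the sh20 seed, and *Itga4* and *Itgal* that of the sh10 seed. Against *Renilla* in CMPs the log2 fold change with the shRNA of the matching seed was 0.73 (SE 0.21) for *Itga4*, 0.05 (SE 0.13) for *Itgal* and -0.36 (SE 0.18) for *Cd44*, the last with an edgeR adjusted p of 0.259. For *Cd44*, sh20 replicate C (93.1 CPM) lay below the controls and replicate B (162 CPM) within their 151.7 to 186.2 CPM. In LSK cells the same values were -0.12 (SE 0.25) for *Itga4*, 0.26 (SE 0.19) for *Itgal* and -0.05 (SE 0.19) for *Cd44*. A part of the seeds in these values was not tested.

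**Figure D4:**
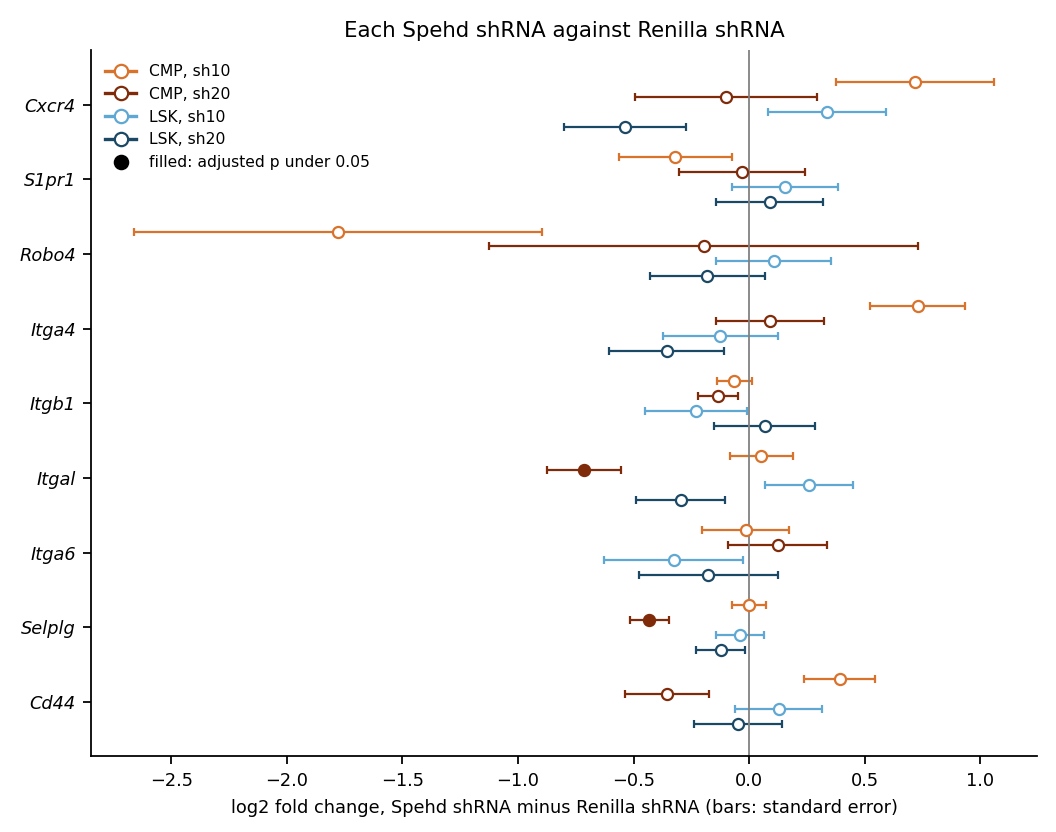
Log2 fold change of each gene with sh10 or sh20 against Renilla shRNA in CMPs and in LSK cells, with standard errors; filled points have an adjusted p under 0.05. The filled points are Itgal (-0.71) and Selplg (-0.43) in CMPs with sh20.

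In LSK cells 0 members passed in the 4 comparisons of shRNAs, and 0.0% of all genes did in each. With both *Spehd* shRNAs against *Renilla*, 0 members had an unadjusted p under 0.05 (3.66% of 13441 genes) or CPM without overlap (0.93%), and DESeq2 called 0. Their log2 fold changes lay between -0.25 and 0.12. Per shRNA, 0 members had an unadjusted p under 0.05 with sh10 (3.3% of 13828 genes) or with sh20 (8.33%), and DESeq2 called 0 in both. With sh20, 1 member, *Cxcr4*, had CPM wholly below the controls (5.81% of all genes, while 12.1% did not overlap in either direction), with 16.4, 16.1 and 10.3 CPM against 16.6 to 24.7.
Between the shRNAs 2 members had an unadjusted p under 0.05 in LSK cells (9.17% of all genes) and the same 2 did not overlap (13.0%), while DESeq2 called 0. *Cxcr4* had 20.4, 25.4 and 30.7 CPM with sh10 and was lower with sh20, by a log2 fold change of -0.87 (SE 0.28) at an edgeR adjusted p of 0.345. *Itgal* had 156.2, 180.4 and 196.5 CPM with sh10 and 144.9, 136.1 and 90.8 CPM with sh20, a log2 fold change of -0.55 (SE 0.20) at an edgeR adjusted p of 0.426. The directions of *Cxcr4* and *Itgal* were the same in CMPs, where *Cxcr4* had -0.82 (SE 0.42) at an edgeR adjusted p of 0.245. Mature neutrophil markers summed to 65.0 to 298.6 CPM in LSK cells with sh10, 4.73 to 7.1 with sh20 and 5.71 to 309.5 with *Renilla* shRNA, with 0 of 7 called between sh20 and sh10. Of the marrow stroma markers *Pdgfrb* had 158.6 to 203 CPM with sh10, 61.4 to 112.2 with sh20 and 90.0 to 130.8 with *Renilla* shRNA, whereas the means of *Cxcl12* (3.88 and 6.31 CPM) and *Col1a1* (0.369 and 1.54) were higher with sh20 than with sh10. Their part in these values was not tested.

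Without sh10 replicate B, the LSK values of several members changed. *Itgb1* had 401.5 and 417.8 CPM in the other 2 sh10 libraries and 177 in replicate B, *Itga6* had 218.9 and 236.8 against 79.4, *Itga4* 158.6 and 163.3 against 73.7, and *Cd44* 206.6 and 205.7 against 112.9. *Cd44* then had a log2 fold change of 0.35 with sh10 against *Renilla* (SE 0.11) at an edgeR adjusted p of 0.9997. *Itga6* had 0.02 (SE 0.17) and *Itgb1* 0.06 (SE 0.07). The counts at an unadjusted p under 0.05 in LSK cells also rested on this library. Without it there was 1 member with sh10 against *Renilla* (*Cd44*, 4.02% of all genes), 1 with sh20 (*Itga4*, log2 fold change -0.37, 13.3%) and 1 with both shRNAs (*Selplg*, -0.14, 6.13%). Between sh20 and sh10 there were 4 in place of 2 (12.3% of all genes), with *Cd44* at -0.41 and *Itga4* at -0.52 beside *Cxcr4* and *Itgal*. None of these passed after adjustment in edgeR, where the adjusted p ran from 0.191 to 0.9997.

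*S1pr1*, the receptor that favours exit from the marrow, had 24.8 to 57.8 CPM over the 19 libraries, and its groups overlapped in each comparison of 2 groups. Its log2 fold changes ran from -0.42 (CMPs against LSK cells with sh10, SE 0.26, and -0.24 without LSK sh10 replicate B) to 0.29 (sh20 against sh10 in CMPs, SE 0.29). The groups also overlapped in each of these comparisons for *Itga6*, the alpha chain of a laminin receptor, with 79.4 to 254.5 CPM.

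Over the 19 libraries the members did not move as a block. These correlations of log2 CPM are a description over libraries that share groups, depth and cell type, with no test. The members of VLA-4, *Itga4* and *Itgb1*, had a Pearson r of 0.462, which was -0.076 without LSK sh10 replicate B, and *Itgb1* and *Itga6* had 0.728, which was -0.028 without it. *Itgal* and *Selplg* had 0.674 (0.643 without it), *Itga4* and *Cd44* 0.634 (0.539) and *Itga4* and *Robo4* -0.710 (-0.716).
Of 10483 other genes whose mean reached 50 counts, the patterns most like *Robo4* were those of *Large2* (r = 0.945), C030037D09Rik (0.932) and *Ggt5* (0.931). *Itga4* was most like *Blm* (0.92), *Urb1* (0.886) and *Senp2* (0.885), and *Cxcr4* was most like *Brd2* (0.819), *Abl1* (0.797) and *Slc35c1* (0.795).

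The other genes of these pathways were taken from 10 lists with 136 genes, of which 118 were tested between *Renilla* CMPs and LSK cells. Of these 41 passed the threshold, 34.7%, with 15 higher and 26 lower in CMPs, beside the 19.8% of all genes.
In the sphingosine 1-phosphate pathway 3 of 9 genes were higher and 2 lower, among them the largest fold of the named genes. *Sphk1*, a kinase that makes the lipid, had 259.4 ± 72.1 CPM in CMPs and 6.86 ± 5.54 in LSK cells (n = 4 in both, SD), a log2 fold change of 5.2 (SE 0.43) at an edgeR adjusted p of 5.3e-07. *Mfsd2b*, a transporter that exports it, was higher with a log2 fold change of 2.0, and *Spns2*, another exporter, was lower with -0.67. Erythroid markers summed to 1169 to 1398 CPM in these CMPs against 220.2 to 390.8 in LSK cells, and megakaryocyte markers to 300.2 to 881.5 against 154.1 to 347.2, and their part in the values of *Sphk1* and *Mfsd2b* was not tested. The receptor *S1pr1* had 44.0 ± 7.86 CPM in CMPs and 42.9 ± 6.83 in LSK cells (n = 4 in both, SD).
Among 15 chemokine receptors 2 were higher and 4 lower, with *Ccr3* at -2.30. Mast cell and basophil markers were lower in the same comparison, with 5 of 5 called and sums of 117.4 to 164.7 CPM in CMPs against 344.2 to 678.4 in LSK cells, and their part was not tested. Of 16 genes that act downstream of chemokine receptors 3 were lower, the Rac activators *Elmo1* (-0.93), *Dock2* (-0.87) and *Vav1* (-0.30).
Of 12 integrin alpha chains 2 were higher and 3 lower, with *Itga9* at -2.19 and *Itga2b*, the alpha chain of the platelet integrin, at 0.67, in the comparison where 5 of 6 megakaryocyte markers were called higher, whose part was not tested. None of 6 other beta chains passed, by edgeR's quasi-likelihood test. Of 17 genes of integrin activation 4 were higher, among them vinculin (*Vcl*, 0.79), and 4 lower, among them *Rasgrp2* (-0.58) and paxillin (*Pxn*, -0.55).
Of 15 selectins, enzymes of selectin ligands and sialomucins 1 was higher, the sialyltransferase *St3gal6* (1.65), and 4 were lower, among them the fucosyltransferase *Fut7* (-1.01). Of 15 other adhesion receptors 2 were higher and 5 lower, with *Alcam* (-2.41), *Emcn* (-2.08) and *Icam1* (-0.97). *Robo3* was the 1 gene higher of 6 Robo and Slit genes (1.46), and *Vcam1* the 1 gene lower of 7 niche ligands (-2.25). *Vcam1* is also on the list of macrophage markers, of which 4 of 6 were called lower, with sums of 34.6 to 228.1 CPM in CMPs against 243.8 to 364.1 in LSK cells, and their part was not tested. All these values are log2 fold changes from LSK cells to CMPs that passed the same test.

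**Figure D5:**
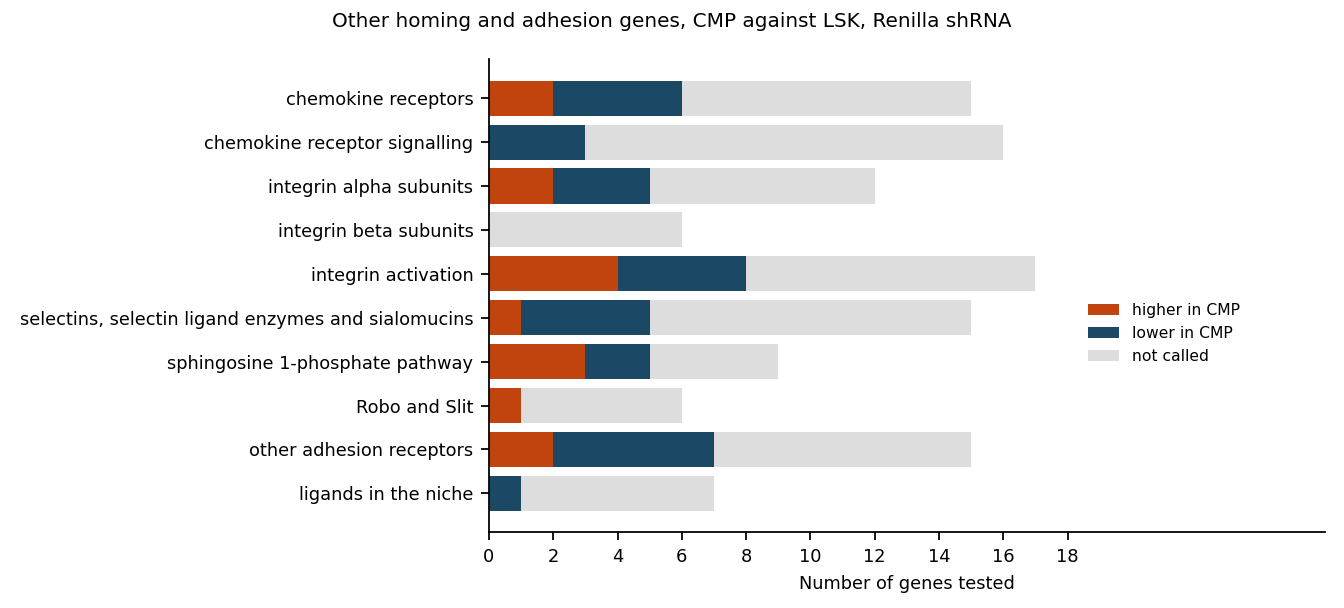
Number of tested genes in each of the 10 lists of other homing and adhesion genes that were higher or lower at an adjusted p under 0.05, or not past it, for CMPs against LSK cells in the Renilla libraries. Both directions occur in 6 of the 10 lists, and none of the 6 integrin beta chains passed.

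With both *Spehd* shRNAs 1 of the 101 listed genes tested passed in CMPs (0.99%, beside 0.116% of all genes). *Ccr9*, a chemokine receptor of lymphoid progenitors and T cells, had 17.9, 8.04, 25.1 and 9.08 CPM with *Renilla* shRNA and 0.201 to 1.26 CPM, from 1 to 6 counts, in the 5 libraries with *Spehd* shRNAs, with a log2 fold change of -4.73 (SE 0.58) at an edgeR adjusted p of 0.0246. In LSK cells it had 0.216 to 1.36 CPM with *Renilla* shRNA, 4.34 to 7.4 with sh10 and at most 0.394 with sh20. T and NK cell markers summed to 87.2 to 137.4 CPM in CMPs with *Renilla* shRNA, 5.83 to 10.9 with sh10 and 74.8 to 140.1 with sh20. Their part in the *Ccr9* values was not tested.
Per shRNA in CMPs, 4 of 109 listed genes passed with sh10, all lower (3.67%, beside 1.97% of all genes), and 16 with sh20, 3 higher and 13 lower (14.7%, beside 6.17%). With sh20, where 4.27% of all genes were called lower, the lower genes included 5 of the 16 genes downstream of chemokine receptors and 2 of the 9 of the sphingosine 1-phosphate pathway. Of integrin activation 2 of 16 were lower and of other adhesion receptors 2 of 15. The selectin list had 2 higher and 1 lower of 15, and the chemokine receptors 1 higher and 1 lower of 12. These counts come from the edgeR fit without a block or covariate.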

How the data were processed

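RNA was sequenced from sorted CMP and LSK cells. According to the submitters' processing notes and the paper's methods, the authors used STAR to align to mm10, Picard to drop duplicates and HTSeq-count to count reads per gene. The deposited counts are whole reads per gene without normalization, and removal of duplicates limits the counts of abundant genes, the highest being 3464 to 5235 per library. Alignments assigned to no gene made up 26.4% to 32.2% of all counted alignments, and 52.3% to 54.3% of those assigned to a gene or to none. Those without a unique position made up 39.6% to 50.9% of all and ambiguous reads 0.371% to 0.442%. All these were left out. A table of counts that the authors normalized was not used.

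The members and lists were chosen with earlier results of these data known. All genes were fitted with edgeR's quasi-likelihood test (edgeR 4.0.16, R 4.3.3) on TMM-normalized counts after filterByExpr (minimum count 10, minimum total 15), with Benjamini-Hochberg adjustment over all genes tested and a threshold of 0.05. The 9 members passed the filter in every comparison. CMP and LSK cells, and the difference between knockdown effects, were compared in a fit of 6 groups over 19 libraries, each shRNA in a fit of 3 groups within a cell type, and both *Spehd* shRNAs together in a fit of 2 groups within a cell type. CPM were scaled by TMM over the 19 libraries, log2 CPM used a prior count of 2, and exon lengths came from GENCODE vM21 on GRCm38 (53775 symbols matched). Members had 3 to 2398 counts per library, which limits the precision of *Robo4* in CMPs most.

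All members were named. From each list up to 3 genes were named, those with the largest log2 fold change between *Renilla* CMPs and LSK cells among the called genes whose mean count reached 50 and whose groups did not overlap, and any listed gene called with both *Spehd* shRNAs. Of the genes this rule names, 1 is not reported here. As alternatives, DESeq2 1.42.0 replaced edgeR, TMM gave way to size factors from DESeq2 or to upper quartile scaling, the filter was dropped or raised to 10 counts in each library, and further fits used the replicate letters as a block, other sets of libraries in the fit, log2 total counts as a covariate, or left out each library in turn. The tests were checked on simulated data, with 100 genes changed by 1 on the log2 scale. Of these, 66 were recovered for both *Spehd* shRNAs in CMPs and 58 in LSK cells. Between *Renilla* CMPs and LSK cells 83 were recovered, and 43 for sh20 in CMPs. The simulations of the cell types and of sh20 held only the libraries of the groups compared. Changes of this size or less can thus be missed.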

Additional observations from a re-analysis of the deposited data

Results flagged for a closer look

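In 2 of 36 sets of libraries tested, 1 library lay far from the others of its group by Dixon's criterion, which chance gives in about 1 of 20 sets. Both were replicate B of sh10 among the 6 LSK libraries with a *Spehd* shRNA. Its *Itgb1* level was 177.0 CPM, where the other 5 libraries had 390.8 to 433.0. Its *Selplg* level was 295.8 CPM, where the other 5 had 241.9 to 257.6. This library also had the lowest correlation with the others of its cell type.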

How the results depend on the processing

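No member passed in CMPs with both *Spehd* shRNAs or in any LSK comparison of shRNAs, under all alternatives run. Between CMPs and LSK cells with *Renilla* shRNA, where 0 members passed, 1 did without a filter, with DESeq2, with only the groups compared and with log2 total counts as a covariate. Leaving out each library gave 0 to 2, with 2 without LSK sh10 replicate B. With sh10, 2 passed, but 1 with at least 10 counts in each library (which removed *Robo4*) or with only the groups compared (*Itga4* was lost), and 1 to 2 when each library was left out, with 1 without CMP sh10 replicate A. With sh20, 1 passed, but 4 without a filter, 0 with only the groups compared (*Selplg* was lost), and 0 to 2 when each library was left out. The difference between knockdown effects gave 0 to 1, with 1 without CMP sh20 replicate C. For sh10 against *Renilla* in CMPs, 0 passed, but 1 without a filter and with DESeq2, and 0 to 3 when each library was left out, with 3 without either CMP sh20 library. For sh20 against *Renilla* in CMPs, 2 passed, but 1 with all 19 libraries in the fit (*Itgal* was lost), 0 with the covariate, and 0 to 3 when each library was left out, with 0 without CMP *Renilla* replicate D. For sh20 against sh10 in CMPs, 3 passed, but 2 with the size factors of DESeq2 or all 19 libraries in the fit, 4 without a filter, 1 with the covariate (*Cd44* passed), and 0 to 4 when each library was left out. The causes of these changes were not tested.

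The labels do not say whether libraries with the same replicate letter belong together. Libraries of the same letter and cell type had correlations of their deviations of -0.175 to 0.156 over 16 pairs, and CMP and LSK libraries of the same letter and shRNA of 0.0031 to 0.259 over 9 pairs, all positive. The block used the letter across shRNAs, and a pairing of CMP and LSK libraries by letter within each shRNA was not fitted. With the replicate block 0 members passed for sh20 against *Renilla* and 0 for sh20 against sh10 in CMPs, and no other count of members changed. Of 90 member differences with an unadjusted p of at least 0.05, 51 changed sign under at least 1 alternative and 7 passed under at least 1. Upper quartile scaling moved the median of all genes by over 0.1 on the log2 scale only for CMPs against LSK cells with sh10, from 0.007 to -0.114, and the same 2 members passed. *Robo4* in CMPs, with 3 to 139 counts per library, is the member that depth limits most.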
